A study of Mus musculus with 10 samples.

Results

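The Dppa genes (developmental pluripotency-associated) were first grouped by their shared expression pattern in early embryos and embryonic stem (ES) cells, not by sequence, and 4 of them are described here over 5 kinds of mouse cell culture: Dppa2, Dppa3, Dppa4 and Dppa5a, of 19938 genes analysed. They were taken by name, and each was read from its probe set with the highest mean over all arrays. Expression was measured on Affymetrix whole-transcript gene arrays, 10 in all, 2 biological replicates per culture, and every level below is a log2 intensity. ESC were R1 cells, an ES line from 129/Sv mice, grown on inactivated embryonic fibroblasts with 15% serum and Lif at 1000 U/ml. pNSC_L were spheres of primitive neural stem cells formed from these cells without serum in N2 medium with the same amount of Lif, and pNSC_LF were such spheres passaged in Lif with 10 ng/ml FGF and 2 μg/ml heparin. dNSC, definitive neural stem cells, came from the primitive ones after a change to medium with N2, B27, heparin and EGF and FGF at 20 ng/ml each, without Lif. CNS_NSC were wild-type neural stem cells from the frontal lobes of E11.5 embryos of the ICR strain, grown with N2 and those amounts of EGF, FGF and heparin. By this description the first 4 cultures descend from 1 ES line, though the ESC arrays stood apart in the gene Hprt, as given below. Every comparison with CNS_NSC also compares the R1 line with the ICR strain.

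Dppa2 and Dppa4 are chromatin proteins with a SAP domain that bind DNA as a pair and are known for activating genes of the first zygotic transcription and for keeping developmental gene promoters free of DNA methylation. Dppa3, also called Stella or PGC7, is a maternal factor of the egg and a marker of primordial germ cells that binds the methylation cofactor Uhrf1 and keeps it off chromatin. Dppa5a, also called Esg1, is an RNA-binding protein with a KH domain, abundant in mouse ES cells and germ cells. In mouse ES cells Dppa3 is known to vary from cell to cell and to be lost early when cells leave the naive state.

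Dppa2, Dppa4 and Dppa5a differed from their ESC level by at most 1.46-fold in both Lif sphere cultures (1.96-fold on the other probe set of Dppa4) and then fell 3.54- to 4.17-fold at the step to dNSC, where they were still higher than in the cells taken from the brain. Dppa3 followed another course: it was highest in ESC, fell 2.29-fold in the first Lif spheres and had no called difference among the other 4 cultures, although on its other probe set dNSC and CNS_NSC were called lower than both sphere cultures. A gene is called where limma's fit over all genes gave it an adjusted p below 0.05.

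**Figure D1:**
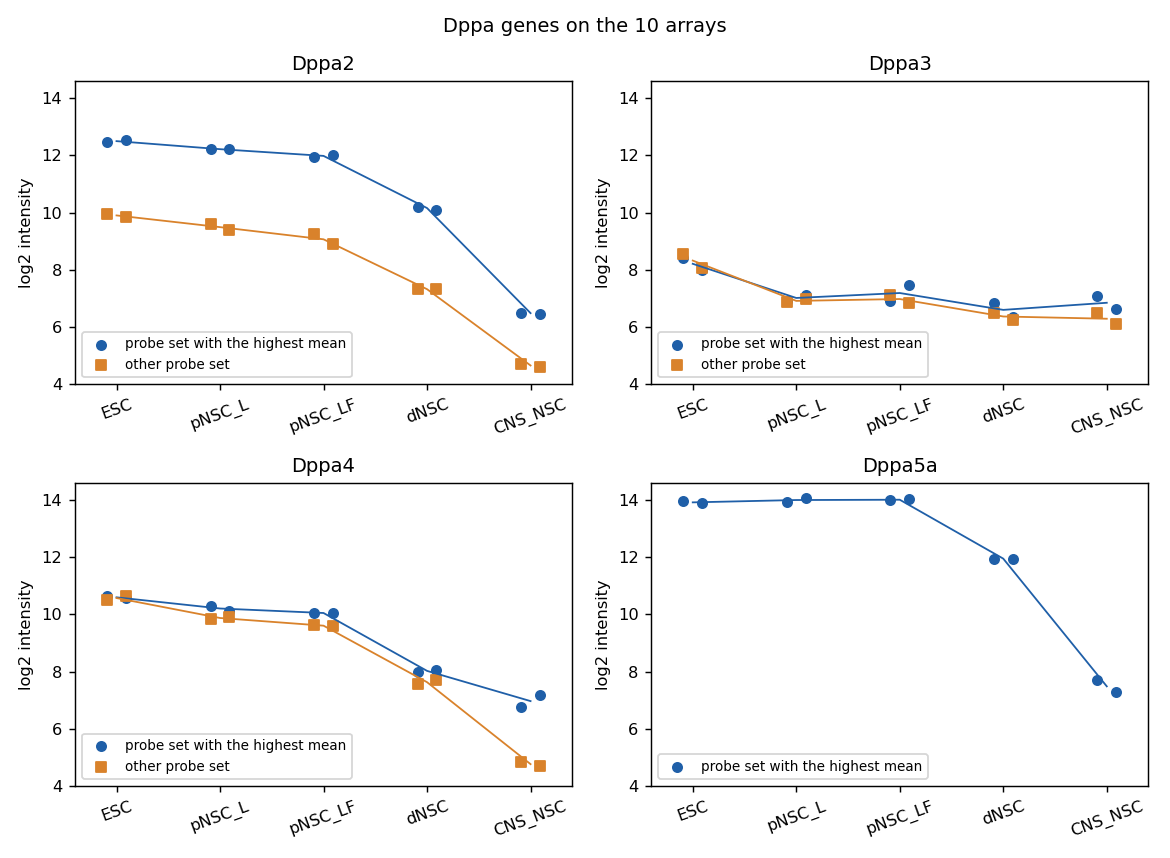
Log2 intensity (vertical axis, the same scale in each panel) of the 4 Dppa genes on the 10 arrays, by culture group; circles are the probe set with the highest mean, squares the other probe set where there is one, and lines join the group means. Dppa2, Dppa4 and Dppa5a are high in the 3 Lif cultures and drop in dNSC and again in CNS_NSC, while Dppa3 stands above the rest in ESC alone.

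Which stretch of the genome a probe set reads matters for 3 of these genes. Dppa2, Dppa3 and Dppa4 each had 2 probe sets named for them, and Dppa5a had 1, so 7 probe sets were read in all. For Dppa2 the probe set with the highest mean is numbered between those of Dntt and Lcor, and for Dppa4 between those of Patl2 and Duox2. The other probe sets of these genes are numbered side by side and followed by that of Morc1, as the genes lie in RefSeq's mouse assembly GRCm38.p6. For Dppa3 the probe set with the highest mean is numbered between those of Mfap5, a neighbour of Dppa3 in RefSeq, and Rps15. The second Dppa3 probe set is numbered between those of Rhox1 and Rhox8, and RefSeq lists a pseudogene, Dppa3-ps, among the Rhox genes. RefSeq also lists the pseudogenes Dppa5b and Dppa5c. Transcripts of such copies and of the genes themselves cannot be told apart here, so both probe sets are given below, the one with the highest mean first.

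Dppa2 read 12.47 and 12.52 on the ESC arrays, 12.22 and 12.22 in pNSC_L, 11.94 and 12.03 in pNSC_LF, 10.21 and 10.11 in dNSC and 6.51 and 6.47 in CNS_NSC. The group means went down in that order. The replicates lay at most 0.11 apart, and pNSC_L could not be separated from either neighbour in the order by the test. Its other probe set read 9.97 and 9.84, 9.60 and 9.39, 9.24 and 8.90, 7.33 and 7.32, and 4.70 and 4.62 in the same order of groups. The probe sets correlated at r = 0.99 over the 10 arrays, which fall into 5 pairs of replicates.

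Dppa4, the partner of Dppa2, read 10.62 and 10.56 in ESC, 10.28 and 10.12 in pNSC_L, 10.03 and 10.06 in pNSC_LF, 7.99 and 8.05 in dNSC and 6.75 and 7.18 in CNS_NSC. The order of group means was that of Dppa2. On this probe set limma did not separate pNSC_L from ESC (adjusted p = 0.095) or from pNSC_LF (adjusted p = 0.73). The other probe set read 10.51 and 10.63, 9.83 and 9.92, 9.62 and 9.59, 7.55 and 7.70, and 4.83 and 4.70. Its drop from dNSC to CNS_NSC was the larger one, so that comparisons of Dppa4 with CNS_NSC depend on which probe set is used.

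Dppa5a read 13.94 and 13.88 in ESC, 13.93 and 14.06 in pNSC_L, 13.98 and 14.03 in pNSC_LF, 11.95 and 11.94 in dNSC and 7.69 and 7.28 in CNS_NSC. Among the Lif cultures pNSC_L overlapped both ESC and pNSC_LF. Limma called no difference of Dppa5a among the Lif cultures (adjusted p from 0.74 to 0.99), and dNSC and CNS_NSC lay far below. On the 6 arrays of the Lif cultures, between 5 and 14 of the 19938 genes were at or above Dppa5a, counting Dppa5a itself. Whether the array could still resolve differences at that height was not tested.

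Dppa3 read 8.43 and 7.99 in ESC, 6.90 and 7.13 in pNSC_L, 6.92 and 7.45 in pNSC_LF, 6.84 and 6.36 in dNSC and 7.08 and 6.61 in CNS_NSC. Both ESC arrays lay above the other 8. CNS_NSC overlapped pNSC_L, pNSC_LF and dNSC, while both dNSC arrays lay below those of pNSC_L and pNSC_LF. Limma called neither of these differences of dNSC on this probe set (adjusted p = 0.21 against pNSC_L and 0.081 against pNSC_LF). The other probe set read 8.57 and 8.08 in ESC and from 6.09 to 7.13 elsewhere. Outside ESC Dppa3 is dim: each array had a lower quartile of 6.39 to 6.49 over its probe sets, and 1 dNSC array read Dppa3 below that. On the probe sets with the highest mean its replicates had gaps of 0.24 to 0.53. In each group they lay further apart than those of the other 3 genes, in CNS_NSC by 0.47 against 0.42 for Dppa4. On the other probe sets this did not hold in pNSC_L and pNSC_LF, where those of Dppa2 lay further apart.

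Dppa1, a gene of the same name that was not among the 4, read between 4.92 and 5.43 on every array, below the lower quartile of probe sets. Averaged over the cultures with Lif and those without, Dppa1 was called higher with Lif by 0.27 ± 0.08 (adjusted p = 0.013), where 25.4% of genes were. Of the pairs of groups, dNSC minus pNSC_L alone was called, at -0.34 ± 0.12 (adjusted p = 0.041). These differences are small, and their sizes are uncertain at that height.

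**Figure D2:**
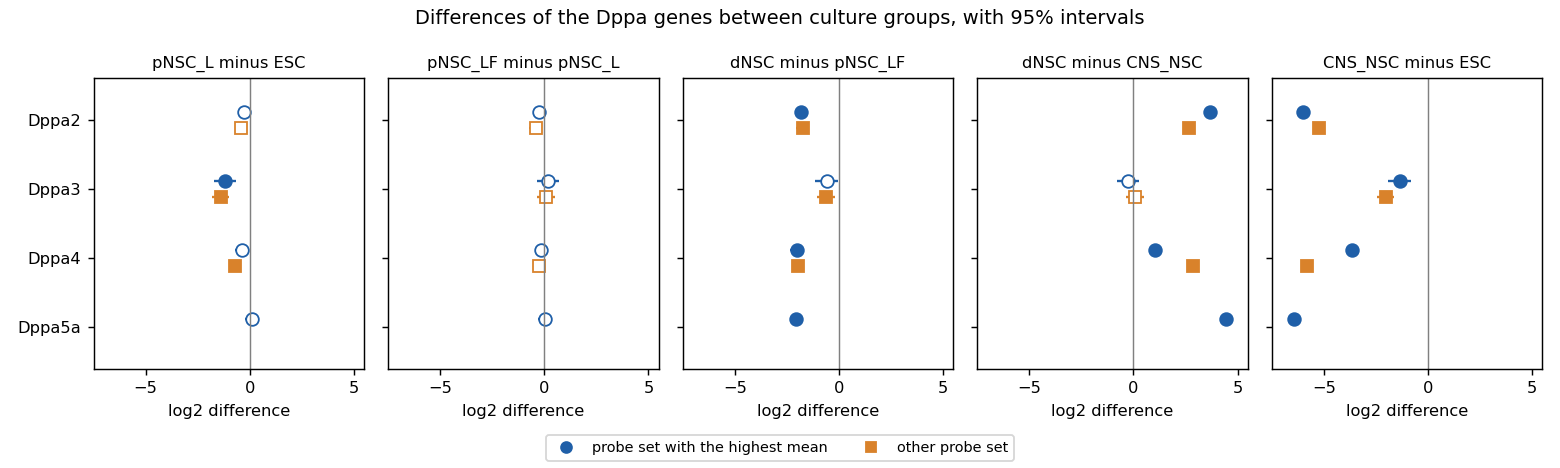
Log2 differences (horizontal axis, first group minus second) of the 4 Dppa genes in 5 comparisons, with 95% intervals from limma; circles are the probe set with the highest mean, squares the other probe set, and filled symbols passed an adjusted p of 0.05. In the first panel Dppa3 lies furthest below 0, in the third Dppa2, Dppa4 and Dppa5a lie near -2, and in the panels with CNS_NSC the 2 probe sets of Dppa4 stand apart.

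Sphere culture without serum and feeder cells was compared first, as pNSC_L against ESC. Dppa3 fell by 1.20 ± 0.24 (SE, n = 2 arrays per group; adjusted p = 0.0096), 2.29-fold, and by 1.41 ± 0.19 on its other probe set (adjusted p = 0.0012). It was the 1 of the 4 genes called lower, where over all genes 13.4% were called, 6.79% lower, and 0.737% lay as far below 0 as Dppa3. Dppa2 differed by -0.28 ± 0.10 (adjusted p = 0.088) and Dppa5a by 0.08 ± 0.13 (adjusted p = 0.78). Dppa4 differed by -0.39 ± 0.14 (adjusted p = 0.095), and its other probe set was called lower at -0.70 ± 0.11 (adjusted p = 0.0024). The 95% interval of Dppa3, from -1.73 to -0.66, did not overlap those of Dppa2 (-0.50 to -0.07) and Dppa5a (-0.22 to 0.38), and overlapped that of Dppa4 (-0.70 to -0.08) at its edge. The differences between genes were not tested.

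Leaving out 1 array of either group kept the Dppa3 difference between -1.41 and -0.98. The call was lost without ESC replicate 1 (-0.98) and without pNSC_L replicate 1 (-1.08), fits that leave 1 array in a group. It was also lost where limma's spread was not moderated (adjusted p = 0.092), and over its alternatives the adjusted p ran from 0.0012 to 0.093. Dppa2 was called in this step with the dimmer 50% of genes left out, with an unmoderated test and with the mean of its probe sets (adjusted p = 0.04, 0.036 and 0.046, in a range from 0.036 to 0.31). The ESC arrays also stood apart in Hprt, a purine salvage enzyme, which read 6.99 and 6.76 there and at least 10.45 on the other 8. Its part in any difference from ESC was not tested, and culture and any difference between stocks of R1 cells cannot be told apart.

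Genes of the programs that the Dppa genes are known from were counted in the same step. Of 9 measured genes on a list of two-cell-stage genes reported downstream of Dppa2 and Dppa4, 6 fell and none rose, with a median of -0.56 against 0.02 over all genes, of which 6.79% fell and 6.56% rose in this step. They included the ubiquitin protease genes Usp17lb at -0.82 ± 0.12 and Usp17lc at -0.71 ± 0.15, the zinc finger gene Zfp352 at -0.61 ± 0.11 and Tmem92 at -0.94 ± 0.19. The 6 that fell are dim genes, with means between 4.85 and 7.77 in both groups, the list also holds genes of wider expression such as Arg2 (-0.56 ± 0.14) and Zfp809, and near-identical copies of the Usp17l genes could share probes. Of 20 germline genes 6 fell and none rose (median -0.35), among them Hormad1, a protein of the meiotic chromosome axis, at -1.61 ± 0.21, Slc25a31, a nucleotide carrier of germ cell mitochondria, at -1.11 ± 0.14, and Syce1, of the synaptonemal complex, at -1.05 ± 0.12. Dazl, a defining germ cell gene, differed by 0.33 ± 0.11 (adjusted p = 0.079). Of 23 pluripotency factors and ES cell genes 6 rose and 1 fell (median 0.24), and none had as large a drop as Dppa3. The 1 that fell was Klf2, a factor of the naive state, by 0.43 ± 0.11.

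Feeder fibroblasts were stated for ESC alone, yet of 15 measured fibroblast markers 7 were higher in pNSC_L and 2 lower (6.56% and 6.79% of all genes), and their mean level was 7.42 and 7.43 in ESC, 7.94 and 8.18 in pNSC_L. The lower ones were Acta2 and Thy1, which read 9.57 and 9.38 in ESC and 8.73 and 8.71 in pNSC_L. Of 16 primitive endoderm markers 6 were higher in pNSC_L and 1 lower. The part of such cells in these differences was not tested.

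The second comparison, pNSC_LF against pNSC_L, covered passage into Lif with FGF and heparin, and 1.78% of all genes were called in it. Limma called none of the 4 Dppa genes, on any of the 7 probe sets (adjusted p from 0.16 to 0.99). Before adjustment limma's p was 0.035 for Dppa2, and 0.0091 and 0.031 on the other probe sets of Dppa2 and Dppa4. The share of all genes with so low a p before adjustment is not given here. Dppa2 differed by -0.23 (95% interval -0.45 to -0.02), Dppa4 by -0.16 (-0.46 to 0.15), Dppa5a by 0.01 (-0.29 to 0.31) and Dppa3 by 0.17 (-0.36 to 0.71). The interval of Dppa3 was the widest of the 4, and none of them reached a 2-fold difference. Ooep, the neighbour of Dppa5a and like it a KH-domain gene, fell by 0.61 ± 0.13 (adjusted p = 0.048).

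Across both sphere stages together, pNSC_LF against ESC, Dppa3, Dppa2 and Dppa4 were lower, by 1.02 ± 0.24, 0.52 ± 0.10 and 0.55 ± 0.14 (adjusted p = 0.018, 0.0058 and 0.024), where 15.3% of all genes were called and 7.41% were lower. Their other probe sets were lower too, by 1.34 ± 0.19, 0.84 ± 0.13 and 0.97 ± 0.11. Dppa5a differed by 0.09 ± 0.13 (adjusted p = 0.74). The calls on the first probe sets were lost for Dppa4 without any 1 of the 4 arrays (adjusted p from 0.096 to 0.13), for Dppa3 without ESC replicate 1 (adjusted p = 0.14) or pNSC_LF replicate 1 (adjusted p = 0.16), and for Dppa2 without ESC replicate 2 (adjusted p = 0.054) or pNSC_LF replicate 1 (adjusted p = 0.07). An unmoderated test lost those of Dppa3 and Dppa4 (adjusted p = 0.12 and 0.087).

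In dNSC against pNSC_LF, Lif was gone, EGF and B27 were new and FGF was higher, so that these changes of medium cannot be told apart. Dppa5a fell by 2.06 ± 0.13 (4.17-fold, adjusted p = 1.3e-06), Dppa4 by 2.02 ± 0.14 (4.07-fold, adjusted p = 1.8e-06) and Dppa2 by 1.82 ± 0.10 (3.54-fold, adjusted p = 3.6e-07). The other probe sets of Dppa4 and Dppa2 fell by 1.98 ± 0.11 and 1.74 ± 0.13. Those 3 genes thus fell by like amounts, with 95% intervals that all overlapped, and no alternative run lost a call of theirs. So 3 of the 4 genes were called lower, in a step where 38.6% of all genes were called, 19.3% lower, and between 0.898% and 1.33% fell as far as these 3. Dppa3 differed by -0.59 ± 0.24 (adjusted p = 0.081), and its other probe set was called lower at -0.61 ± 0.19 (adjusted p = 0.027). On the first probe set the call also appeared without pNSC_LF replicate 1 (-0.86, adjusted p = 0.042), over a range of adjusted p from 0.027 to 0.45. In bulk samples like these, fewer cells that express a gene and less RNA in each cell cannot be told apart.

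**Figure D3:**
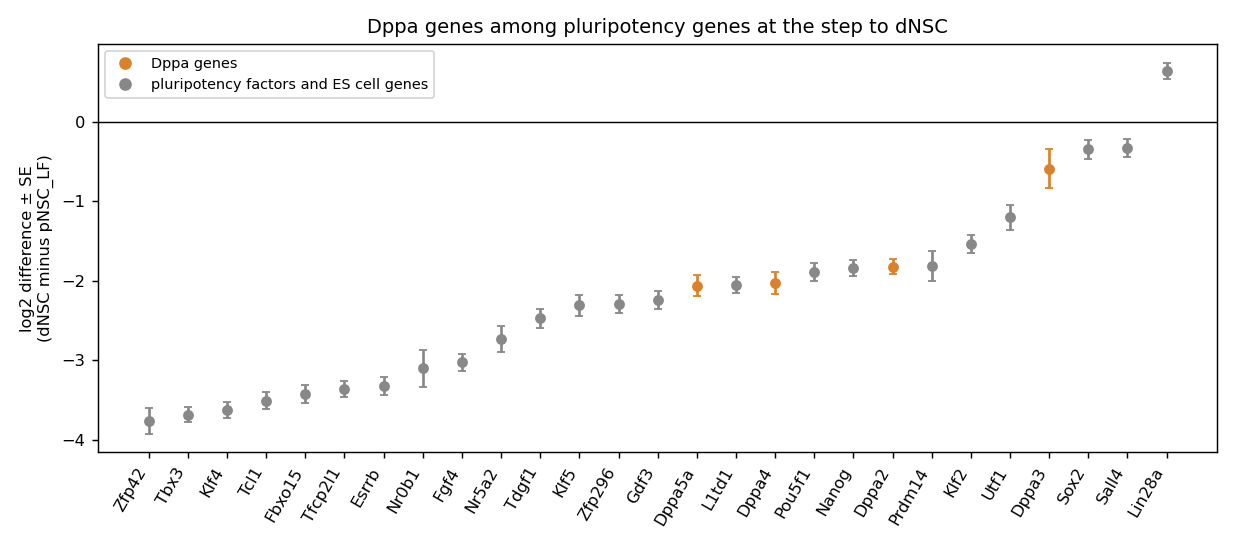
Log2 difference between dNSC and pNSC_LF (vertical axis, ± SE from limma) of the 4 Dppa genes and 23 pluripotency factors and ES cell genes, ordered by size. Dppa5a, Dppa4 and Dppa2 lie beside L1td1, Pou5f1 and Nanog near -2, with Zfp42, Tbx3 and Klf4 at the far left and Lin28a above 0.

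Of the 23 measured pluripotency genes 22 fell in this step, and Lin28a, which encodes a repressor of let-7 miRNAs, rose (median -2.31, against -0.01 over all genes), and 14, 15 and 17 of them fell further than Dppa5a, Dppa4 and Dppa2. Zfp42, a marker of naive ES cells, fell by 3.76 ± 0.16 and Esrrb, a nuclear receptor of the naive state, by 3.32 ± 0.11. The core factors Pou5f1 and Nanog differed by -1.89 ± 0.11 and -1.84 ± 0.10, both called and within the range of the 3 Dppa genes. Sox2 and Sall4, expressed in neural progenitors or early embryos as well, fell by 0.35 ± 0.12 and 0.33 ± 0.11.

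The lists below are to be read against all genes, of which 19.3% fell and 19.3% rose at this step. Of 20 germline genes 18 fell and 1 rose (median -1.16), with the germ cell RNA-binding protein gene Dazl at -2.70 ± 0.11 and the piRNA factor gene Mael at -2.46 ± 0.19; the 1 that rose was Tdrkh, at 2.73 ± 0.13. The two-cell list showed 1 lower, Zfp809 at -1.13 ± 0.10, and 1 higher, Arg2 at 0.52 ± 0.14, of 9, a smaller share than over all genes. Of 15 genes of DNA methylation 8 fell and 6 rose. Uhrf1, the partner bound by Dppa3, fell by 0.42 ± 0.10 and the maintenance methyltransferase Dnmt1 by 0.31 ± 0.10. The demethylating enzymes Tet1 and Tet2 fell by 1.90 ± 0.14 and 1.46 ± 0.16, whereas Tet3, the form known from the egg, rose by 2.40 ± 0.11. The de novo methyltransferases Dnmt3a and Dnmt3b rose by 1.09 ± 0.18 and 0.90 ± 0.13, and their cofactor Dnmt3l fell by 1.84 ± 0.17. Of 12 genes of the oocyte complex and KH-domain relatives of Dppa5a 6 fell and 1 rose: Ooep fell by 2.54 ± 0.13 and its binding partner Khdc3 by 1.18 ± 0.16, while Zbed3 rose by 1.45 ± 0.11. Of 11 genes of primordial germ cell specification, a list that shares Lin28a and Prdm14 with the pluripotency list, 7 fell and 2 rose; Prdm14 fell by 1.81 ± 0.19 and Tfap2c by 1.03 ± 0.18, and Nanos3 rose by 0.39 ± 0.12.

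Compared with the ESC arrays, on which Hprt was also 12.5-fold lower than in dNSC, dNSC had Dppa4 lower by 5.94-fold (-2.57 ± 0.14), Dppa2 by 5.06-fold (-2.34 ± 0.10), Dppa5a by 3.91-fold (-1.97 ± 0.13) and Dppa3 by 3.06-fold (-1.61 ± 0.24), all called, where 19.9% of genes were lower and 40.5% were called. On the other probe sets these differences were -2.94 ± 0.11 for Dppa4, -2.58 ± 0.13 for Dppa2 and -1.95 ± 0.19 for Dppa3. Averaged over the cultures with Lif and those without, all 4 genes were higher with Lif: by 4.26 ± 0.09 for Dppa5a, 3.91 ± 0.06 for Dppa2, 2.79 ± 0.09 for Dppa4 and 0.75 ± 0.16 for Dppa3, at a background of 25.4% of genes called higher and 51.5% called. On the other probe sets Dppa4 was higher by 3.82 ± 0.07, Dppa2 by 3.50 ± 0.085 and Dppa3 by 1.08 ± 0.12. For Dppa3, on the probe set with the highest mean, neither Lif sphere culture was called against dNSC or CNS_NSC (adjusted p from 0.081 to 0.64). Both ESC arrays lay above all others there. That average shares its arrays with the comparisons above.

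The fourth comparison set dNSC against CNS_NSC, neural stem cells of culture origin against those of the embryo. Dppa5a was 22.1-fold higher in dNSC (4.46 ± 0.13, adjusted p = 1.3e-08) and Dppa2 12.8-fold (3.67 ± 0.10, adjusted p = 6.5e-09), or 6.35-fold on its other probe set (2.67 ± 0.13). Dppa4 was 2.08-fold higher (1.06 ± 0.14, adjusted p = 0.00019) by the probe set with the highest mean and 7.29-fold higher (2.87 ± 0.11, adjusted p = 4.1e-08) by the other. Dppa3 differed by -0.25 ± 0.24 (adjusted p = 0.5), and by 0.08 ± 0.19 on its other probe set. So 3 of the 4 were called higher in dNSC, where 34% of genes were called, 17.6% higher, and 0.0953% had a difference as large as that of Dppa5a. The CNS_NSC levels of Dppa2 and of the other probe set of Dppa4 lie near or below the lower quartile of probe sets, so the sizes of these differences are uncertain.

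Markers of both states stood beside these values in dNSC. Of 23 pluripotency genes 19 were higher in dNSC than in CNS_NSC and none lower, Pou5f1 by 4.10 ± 0.11 and Utf1 by 4.59 ± 0.16, while Klf4, of the naive state, differed by -0.22 ± 0.10 (adjusted p = 0.14). Utf1 was the 1 gene of the list with a larger difference than Dppa5a. Their mean level was 9.46 and 9.43 in dNSC against 7.46 and 7.49 in CNS_NSC and 11.64 and 11.56 in ESC. Of 17 neural stem cell markers 10 were lower in dNSC than in CNS_NSC and 4 higher, with a mean level of 10.02 and 9.98 in dNSC against 11.47 and 11.41. Of 15 fibroblast markers 10 were higher in dNSC and 2 lower, of 16 primitive endoderm markers 10 were higher and none lower, and 15 of 16 genes of the primed epiblast were higher and 0 lower, where 17.6% of all genes were higher and 16.5% lower. In the step from pNSC_LF to dNSC 13 of the neural markers had risen, such as the radial glia gene Fabp7 by 7.04 ± 0.15, and 1, the receptor gene Egfr, had fallen by 0.37 ± 0.11. In that step, where 38.6% of all genes were called, 19.3% in each direction, 11 of the primed epiblast genes rose and 3 fell, 10 of the fibroblast markers rose and 1 fell, and 6 of the endoderm markers rose and 2 fell. The part of a mixture of cells in the Dppa levels of dNSC was not tested.

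Against ESC, CNS_NSC had all 4 genes lower: Dppa5a by 6.43 ± 0.13, Dppa2 by 6.01 ± 0.10, Dppa4 by 3.63 ± 0.14 and Dppa3 by 1.36 ± 0.24, where 22.1% of genes were lower and 43.8% were called. On the other probe sets Dppa4 was lower by 5.81 ± 0.11, Dppa2 by 5.25 ± 0.13 and Dppa3 by 2.03 ± 0.19. On these probe sets of Dppa4 and Dppa2 all CNS_NSC values, from 4.62 to 4.83, lay below the lower quartile of probe sets, so the sizes of both differences are uncertain.

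The genes beside the Dppa genes on the chromosome were read from the RefSeq order, 3 measured genes on each side. Dppa4 and Dppa2 are neighbours, and the next gene beyond Dppa2 is Morc1, an ATPase gene of germ cells known for silencing transposons. Morc1 read 11.01 and 11.15 in ESC, 11.36 and 11.67 in pNSC_L, 11.05 and 11.23 in pNSC_LF, 8.02 and 8.01 in dNSC and a mean of 5.96 in CNS_NSC. It fell by 3.12 ± 0.13 from pNSC_LF to dNSC, while Nectin3, an adhesion molecule gene on the side of Dppa4, rose by 1.08 ± 0.13. The Dppa4 and Dppa2 probe sets numbered in this stretch, the other ones, fell by 1.98 ± 0.11 and 1.74 ± 0.13. Cd96, 6430553K19Rik, Trat1 and Retnlb, the other 4 of this stretch, were not called in that step (adjusted p from 0.44 to 1).

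**Figure D4:**
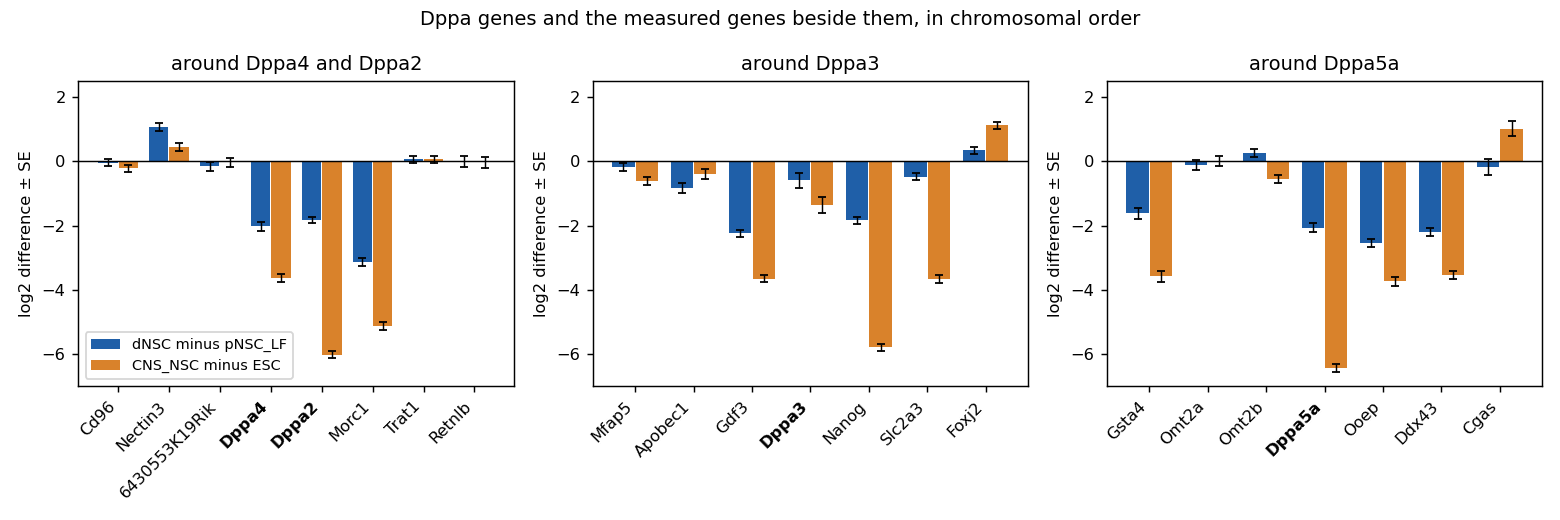
Log2 differences (vertical axis, ± SE from limma) of the Dppa genes (bold, probe set with the highest mean) and up to 3 measured neighbours on each side in RefSeq order, for dNSC minus pNSC_LF and for CNS_NSC minus ESC. Low bars include those from Dppa4 to Morc1, from Dppa5a to Ddx43, and of Gdf3, Nanog and Gsta4. Slc2a3 is far below 0 in CNS_NSC minus ESC. Dppa3 is below 0 in both comparisons, at -1.36 in CNS_NSC minus ESC and -0.59 in dNSC minus pNSC_LF. Smaller drops include Apobec1 in dNSC minus pNSC_LF (-0.84), and Mfap5 (-0.62) and Omt2b (-0.56) in CNS_NSC minus ESC. The remaining bars lie nearer 0 or above it. The probe sets plotted for Dppa4 and Dppa2 are numbered among genes of other stretches, not beside Morc1.

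Dppa3 lies between Gdf3, a ligand of the TGF-beta superfamily, and Nanog, both on the pluripotency list. Both neighbours fell from pNSC_LF to dNSC, with differences of -2.24 ± 0.12 for Gdf3 and -1.84 ± 0.10 for Nanog, and neither passed the test from ESC to pNSC_L (0.34 ± 0.12, adjusted p = 0.082, and -0.16 ± 0.10, adjusted p = 0.41), the step in which Dppa3 was called. The glucose transporter gene Slc2a3, next beyond Nanog, fell by 0.47 ± 0.12 in the step to dNSC and differed by -3.66 ± 0.12 between CNS_NSC and ESC. Dppa5a lies beside Ooep, and beyond it Ddx43, an RNA helicase gene of germ cells. Ooep read 11.62 and 11.48 in ESC, 8.63 and 8.71 in dNSC and 7.72 and 7.90 in CNS_NSC, and Ddx43 fell by 2.21 ± 0.13 in the step to dNSC. On its other side Omt2b and Omt2a were not called in that step, and Gsta4, a glutathione transferase gene, fell by 1.62 ± 0.17. Of the 18 neighbours of the 3 stretches 8 fell, 2 rose and 8 were not called in the step to dNSC. Over all genes 38.6% were called in that step, 19.3% lower.

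Likeness to other genes was measured by Pearson's r over the 10 arrays, among 5512 genes without a predicted or clone name whose group means spanned at least 1 on the log2 scale; the arrays fall into 5 groups with large differences, so high values are common, and no p is given. By its probe set with the highest mean Dppa2 was most like Lncenc1, a noncoding RNA of ES cells (r = 0.9987), Nanog (0.9985), Tdgf1, the Nodal co-receptor gene (0.9973), Trim6 (0.9952) and Dppa5a (0.9945). Dppa5a was most like Pou5f1 (0.9987), then Zfp640, Nanog, Lncenc1 and Ifi30. Dppa4 was most like Hook2 (0.9969), Sohlh2, a transcription factor gene of germ cells (0.9961), Ccnb1ip1, Inpp5d and Socs3, the Lif pathway's feedback inhibitor. Its r with Dppa2 was 0.95, at rank 287 among the genes most like Dppa2, but its other probe set had r = 0.99 at rank 12, and the other probe sets of both genes correlated at 0.9974. Dppa3 was most like Ppp2r2c (0.96), Usp17lb (0.95), Thy1, Tktl1 and Tmem63c, a set of genes that were highest in ESC, and its r with Dppa2, Dppa4 and Dppa5a was 0.50, 0.62 and 0.44. These names depend on the probe set: with the other one the most like gene was Dnmt3l for Dppa2 (0.9941), Fblim1 for Dppa4 (0.9970) and Ttll6 for Dppa3 (0.9806), and of the 5 names per gene Tdgf1, for Dppa2, was the 1 shared by both. The other probe set of Dppa3 also had a higher r with Dppa2, Dppa4 and Dppa5a, of 0.66, 0.76 and 0.60. With the other probe sets of Dppa2 and Dppa4 it had r = 0.72 and 0.74. Usp17lb, on the two-cell list, read 7.34 and 7.30 in ESC and from 6.18 to 6.67 on the other arrays.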

How the data were processed

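Affymetrix whole-transcript gene arrays were run on RNA of 10 cultures after an Ambion preparation, per the labels' protocols. The authors deposited log2 intensities for 35556 probe sets; RMA and Partek are named in the submitters' processing notes. RMA makes array distributions alike (medians 7.66 to 7.76) and compresses differences of dim probe sets. No header gives the base of the logarithm, which was taken from the range of the values. Scan dates and a genome build are not given in the sources used here. Of the probe sets, 21789 carry 1 gene symbol in the platform's annotation, 1621 several and 12146 none here; the highest-mean probe set per gene left 19938 genes.

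limma 3.58.1 (R 4.3.3) estimated a mean for each group from all 10 arrays, with 5 residual and 4.9 prior degrees of freedom. P-values were adjusted by Benjamini-Hochberg over all genes in each comparison, at a threshold of 0.05, and the fit was tested on simulated data. Precision is limited by the 2 arrays per group, which the labels call biological replicates. Replicates correlated at 0.9885 to 0.9972 across genes, and 0 pairs of arrays were identical. Alternatives changed the normalization, filter, variance model, arrays used, replicate block or probe set; the other probe set was added after the data were seen. The Dppa genes, gene lists and tests were chosen with earlier results of these data known. The genes named are the Dppa genes, up to 3 measured neighbours on each side, the 5 most like each, and list members; of the last, some were chosen after their values were seen, as were Hprt and Dppa1. Tables and plots were made in Python 3.11.15 (pandas 2.3.3, matplotlib 3.10.9).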

Additional observations from a re-analysis of the deposited data

How the results depend on the processing

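Over 44 results (4 genes in 11 comparisons) and 603 alternative settings, 576 kept the direction of any called value and the side of the threshold, 13 lost a call, 14 gained one and 0 reversed a call. In pNSC_L against ESC, Dppa2 (-0.28) was called with the dimmer 50% of genes left out and with no moderation (-0.28 each) and with the mean of all probe sets (-0.35), and Dppa4 (-0.39) with the mean of all probe sets (-0.54) and the other probe set (-0.70). Dppa3 (-1.20) lost its call with an unmoderated test (-1.20) and ran from -1.41 to -0.98 leaving out 1 replicate. In dNSC against pNSC_LF, Dppa3 (-0.59) was called with median centring (-0.68), array weights and only the 2 groups (-0.59 each), the mean of all probe sets (-0.60) and the other probe set (-0.61), and ran from -0.86 to -0.32 leaving out 1 replicate. The cause was not tested. Uncalled differences that changed sign in some setting were those of Dppa3 in pNSC_LF against pNSC_L (to -0.09), dNSC against CNS_NSC (to 0.08) and CNS_NSC against pNSC_L (to 0.07, but called at -0.62 on the other probe set), and of Dppa5a in pNSC_LF against pNSC_L (to -0.06).

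With the replicate number as a block (replicate block) no call on these genes changed: Dppa3 stood at -1.20 (adjusted p = 0.011) in pNSC_L against ESC. The numbers pair samples by label only: 6 of 10 pairs of groups had a correlation of deviations over 0.1 (range -0.11 to 0.38). Dppa3 has no value with the dimmer 50% left out, since it is among them. The genes called over the whole array moved by over 1.5 times in 3 comparisons: 2662 in pNSC_L against ESC fell to as few as 1102 without ESC replicate 1, 355 in pNSC_LF against pNSC_L ranged from 48 without pNSC_LF replicate 1 to 826 without pNSC_L replicate 2, and the 3043 in pNSC_LF against ESC ranged from 1241 without pNSC_LF replicate 1 to 5272 with array weights.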
